A study of Rattus norvegicus with 18 samples.

Results

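Ccng1, Cdkn1a, Mdm2, Sesn1, Sesn2, Bax, Phlda3, Gadd45a, Gadd45b and Tp53inp1 are genes that the tumour suppressor p53 is known to activate, and their liver mRNA was followed in the BarNa rat model of non-alcoholic steatohepatitis (NASH). These 10 genes were chosen by name with the levels and group differences of the same rats known, among them those of Ccng1 and Sesn1, so their differences between groups are given as a description and carry no p-value. They are 10 of the 32623 genes in the deposited tables. Of the 10, 9 were found by symbol and Trp53inp1 was found under its RefSeq synonym Tp53inp1, and all 10 were among the 12904 genes with enough counts to be tested.

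Liver RNA of 18 male Wistar rats was sequenced, 1 library per rat and 6 rats per group, so that replicates are separate animals. Control rats received standard chow and plain water for 12 weeks. NASH rats, over 10 weeks, inhaled CCl4, a solvent that injures hepatocytes, with phenobarbital by mouth for 6 weeks and then ate a diet rich in fat and cholesterol (HFCD) for 4 weeks. Rats of the NASH-CH group, the later stage with established cirrhosis, had CCl4 and phenobarbital for all 24 weeks and the HFCD for the last 16. The NASH rats had thus been off CCl4 and phenobarbital for 4 weeks when the liver was taken, the NASH-CH rats had not, and the control rats had received neither agent. The sample labels state the combined treatment for the whole 10 and 24 weeks, which differs from the study's methods. Treatment, diet and duration differed together between the groups and cannot be told apart, and the rats' ages are not given in the sources used here.

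The p53 protein is a transcription factor that is held at a low level by the ubiquitin ligase Mdm2, itself a p53 target, and that accumulates after DNA damage and other stress. Its targets stop the cell cycle (Cdkn1a, Gadd45a), restrain growth and oxidative damage (Sesn1, Sesn2), promote apoptosis (Bax, Phlda3, Tp53inp1) or feed back on p53 itself (Mdm2, Ccng1). In the liver this programme is known for limiting the division of injured hepatocytes, and its control lies largely at the level of the protein, which was not measured here. Several targets also answer to other regulators, such as Atf4 for Sesn2 and Gadd45a and the constitutive androstane receptor (CAR), the phenobarbital sensor, for Gadd45b and Mdm2.

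p53 binds DNA as a tetramer, with each pair of subunits on a decamer, and a full response element is a pair of decamers. RefSeq promoters of the GRCr8 assembly, from 250 bases before to 50 after the gene's start, were matched for 8 of the 10 genes, and Bax and Tp53inp1 had no entry. The p53 consensus decamer, which reads the same on both strands, was searched in each window without mismatch. It was present in 4 of the 8 windows, against 7.98% of 33469 rat promoter windows. A pair of decamers with a spacer of 0 to 13 bases and at most 1 mismatch in all was present in 3 windows, against 1.00% of all windows. The 250 bases upstream of the start are printed for the 4 genes, since these are the windows that hold the decamer, with the exact decamer and any partner decamer in capitals.

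Ccng1, chr10:25684877-25685126, minus strand: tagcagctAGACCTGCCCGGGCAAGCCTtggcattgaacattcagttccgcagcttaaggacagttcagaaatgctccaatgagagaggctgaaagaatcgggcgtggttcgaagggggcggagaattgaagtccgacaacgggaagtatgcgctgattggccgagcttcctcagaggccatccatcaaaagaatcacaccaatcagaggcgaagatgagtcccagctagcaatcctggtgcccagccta

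Cdkn1a, chr20:7150682-7150931, plus strand: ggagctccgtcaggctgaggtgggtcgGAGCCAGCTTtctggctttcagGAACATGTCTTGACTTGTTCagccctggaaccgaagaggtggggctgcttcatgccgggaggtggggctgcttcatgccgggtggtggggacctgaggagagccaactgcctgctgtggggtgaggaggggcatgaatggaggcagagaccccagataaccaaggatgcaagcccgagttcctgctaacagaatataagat

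Sesn1, chr20:46948469-46948718, plus strand: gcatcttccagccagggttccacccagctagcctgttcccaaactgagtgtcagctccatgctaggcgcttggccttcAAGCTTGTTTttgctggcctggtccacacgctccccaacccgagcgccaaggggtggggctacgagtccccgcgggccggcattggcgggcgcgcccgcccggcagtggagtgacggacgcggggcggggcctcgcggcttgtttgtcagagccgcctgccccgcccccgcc

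Gadd45a, chr4:97486800-97487049, minus strand: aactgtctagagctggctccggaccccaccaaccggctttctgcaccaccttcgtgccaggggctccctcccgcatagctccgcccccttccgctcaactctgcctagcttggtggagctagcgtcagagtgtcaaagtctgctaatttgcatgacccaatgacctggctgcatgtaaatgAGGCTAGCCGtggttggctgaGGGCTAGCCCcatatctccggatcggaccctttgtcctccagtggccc

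In Ccng1 the exact decamer lay at -232 to -223 from the start and its partner directly before it. Cdkn1a carried the decamer at -201 to -192, with one partner after a spacer of 12 bases on its upstream side and another directly downstream. Gadd45a had its pair at -69 to -39 with a spacer of 11 bases. Sesn1 had a single decamer at -172 to -163 and no partner under this rule. Mdm2, Sesn2, Phlda3 and Gadd45b had no exact decamer in this window, which says only that these letters are not in it. A match is a match of letters, since binding of p53 was not measured.

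Levels are given in CPM, the counts of a gene scaled to a common library total, after adjustment between libraries by TMM, which trims genes of extreme ratio before it sets the factor. These are not divided by gene length, so that a gene is compared with itself across rats and not with another gene. Totals were 19498534 to 27174015 counts in control, 20827770 to 29491947 in NASH and 44680344 to 60117822 in NASH-CH rats, and the 10 genes had from 88 to 3753 counts in each rat. Differences are log2 fold changes with their standard error (SE) from 1 limma-voom fit of all 18 rats. A gene is called where its p, adjusted over all 12904 genes, is under 0.05. The 10 genes were picked with these values known. For them a call, or its gain or loss in a refit, describes the side of this threshold and is not a test. Hepatocyte markers were abundant in each rat, with 6 markers summing to 108178 to 152593 CPM in control, 70669 to 115002 in NASH and 54203 to 110019 in NASH-CH rats. Alb made up most of this sum, with means of 105874, 74893 and 71037 CPM. Ttr, Apoa1 and Serpina1 were also lower on average in both models than in control, while Cps1 and Tat were higher. Lymphocyte and neutrophil markers stayed at or below 3.52 and 5.66 CPM in sum. The 6 macrophage markers summed to 198 to 375, 155 to 229 and 132 to 197 CPM, the 7 stellate cell and myofibroblast markers to 277 to 369, 224 to 305 and 275 to 426, and the 6 cholangiocyte markers to 8.43 to 10.5, 6.60 to 12.2 and 6.53 to 51.5, in control, NASH and NASH-CH rats in turn. Clec4f, the largest of the macrophage markers, averaged 113, 87.3 and 73.2 CPM. Cd163, Marco, Adgre1 and Csf1r were also lower on average in both models, while Cd68 was not. Col3a1 made up most of the stellate cell sum. In NASH-CH rats Lrat was lower on average than in control and the other markers of that list were higher. In whole liver, fewer cells of a type, less RNA per cell and a change in a marker gene itself cannot be told apart. The part of cell makeup in the values that follow was not tested.

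The 10 genes did not share a direction. Against control, 8 of the 10 had a positive log2 fold change in NASH rats, with a median of 0.63, and 5 of 10 in NASH-CH rats, with a median of 0.02, while between the 2 models 9 of 10 were lower in NASH-CH, with a median of -0.47. Over all tested genes these medians were 0.0072, 0.013 and 0.0068. With library size only as the scaling, the positive counts were 9, 8 and 1 of 10. In NASH against control, 2 of the 10 were called, both higher, where 3.12% of all tested genes were (1.58% higher and 1.54% lower). In NASH-CH against control 3 were called, Gadd45b higher and Sesn1 and Phlda3 lower, against 17.0% of all (8.38% higher and 8.60% lower). In NASH-CH against NASH 2 were called, both lower, against 4.20% of all (1.81% higher and 2.39% lower). As the genes were picked with these contrasts known, nothing is read from the counts.

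**Figure D1:**
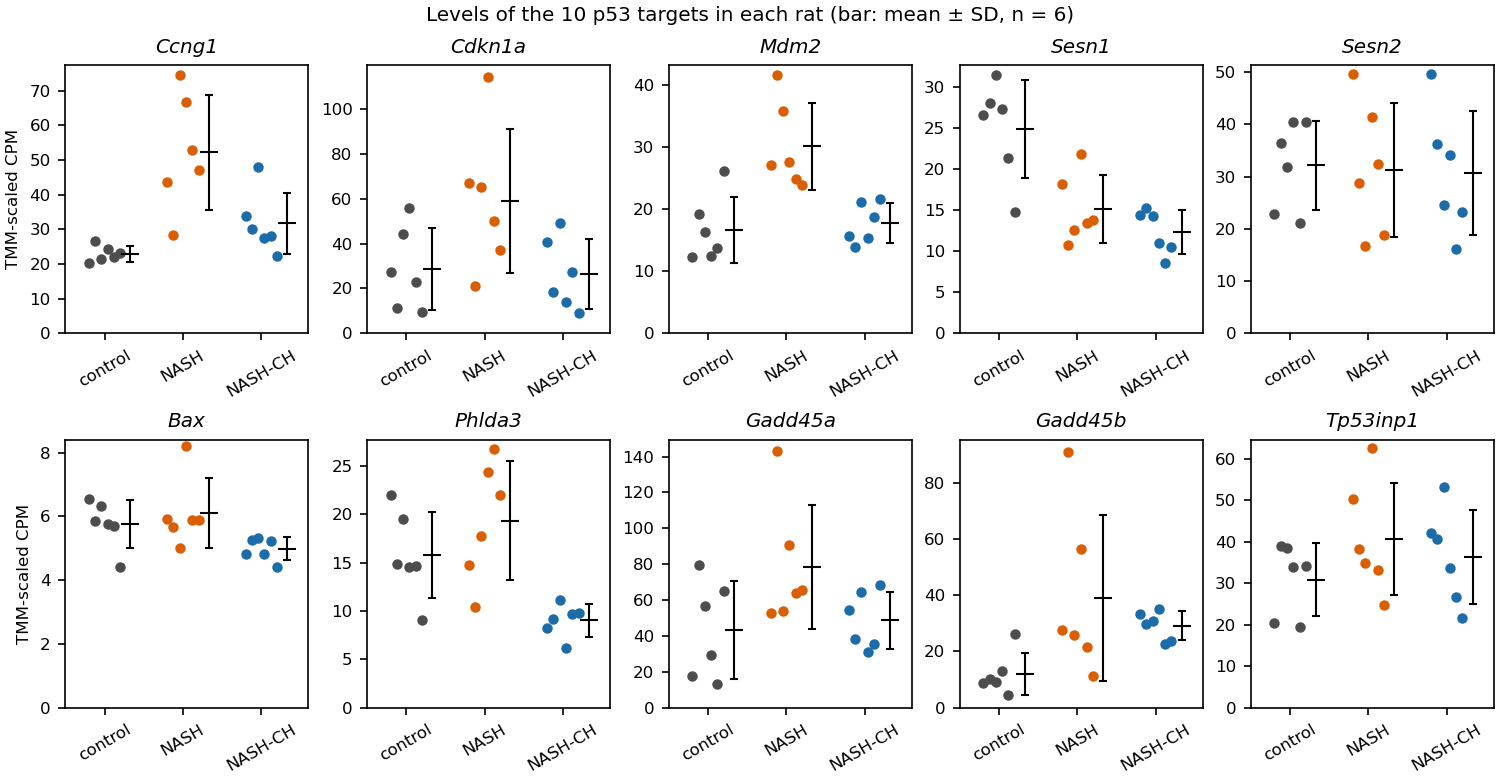
Level of each of the 10 genes in TMM-scaled CPM (vertical axis, from 0, its own scale in each panel) in the 6 control, 6 NASH and 6 NASH-CH rats. Points are rats and the bar is the mean with its SD. Ccng1 in NASH lies above 28 CPM with all control rats below 27, and Sesn1 lies lower in both models, while Sesn2 and Bax overlap in all 3 groups.

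The plot of levels by rat shows the spread that each mean hides. The 2 groups did not overlap for 1 of the 10 genes in NASH against control (Ccng1, higher), where 3.16% of all tested genes had groups that did not overlap. For NASH-CH against control this held for none of the 10, against 7.11% of all genes, and for NASH-CH against NASH for 1 (Mdm2, lower), against 3.46%.

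**Figure D2:**
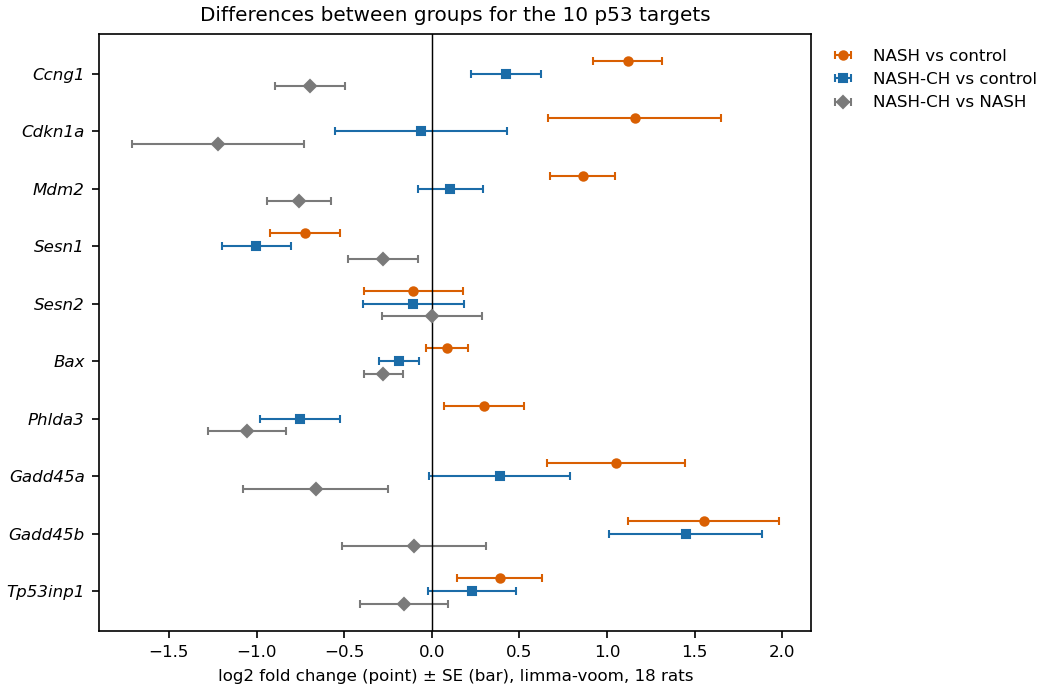
Log2 fold change (point) with its SE (bar) of each of the 10 genes for NASH against control (circles), NASH-CH against control (squares) and NASH-CH against NASH (diamonds), from the limma-voom fit of 18 rats. Gadd45b is highest in both models, at 1.55 and 1.45, and Sesn1 is lowest in both, at -0.72 and -1.0.

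Among the genes that feed back on p53 or halt the cycle, Ccng1, which encodes cyclin G1, a regulator of Mdm2, separated the NASH rats from the controls completely. Ccng1 ran from 20.3 to 26.8 CPM in control rats (median 22.5, mean 23.0 ± 2.33 SD, n = 6). The NASH rats ran from 28.4 to 74.7 CPM (median 50.1, mean 52.3 ± 16.6), and the NASH-CH rats from 22.4 to 48.1 CPM (median 29.1, mean 31.7 ± 8.89). Every NASH rat was above every control rat, 5 of 6 NASH-CH rats were too, and 3 NASH-CH rats were below every NASH rat. The log2 fold change of Ccng1 (ENSRNOG00000003256) was 1.12 (SE 0.20) in NASH and 0.42 (SE 0.20) in NASH-CH against control, and -0.70 (SE 0.20) between the models. Between the models Ccng1 was not called, but it was with edgeR (-0.72), DESeq2 (-0.72), no filter (-0.69), thinned NASH-CH counts (-0.71), and without NASH rat 2 (-0.86) or NASH-CH rat 3 (-0.82), and in NASH-CH against control it was with library size only (0.68).

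Mdm2, the ubiquitin ligase that marks p53 for degradation, had its highest levels in the NASH group. In control rats Mdm2 (ENSRNOG00000006304) ran from 12.2 to 26.1 CPM (median 15.0, mean 16.7 ± 5.33), in NASH rats from 23.8 to 41.6 (median 27.3, mean 30.1 ± 7.02) and in NASH-CH rats from 13.9 to 21.6 (median 17.2, mean 17.7 ± 3.23). Control rat 6, at 26.1 CPM, was the control that reached the NASH range, and 4 of 6 NASH rats were above it. All 6 NASH-CH rats were below all 6 NASH rats. Mdm2 differed from control by a log2 fold change of 0.86 (SE 0.19) in NASH, 0.11 (SE 0.19) in NASH-CH and -0.76 (SE 0.18) between the models. Mdm2 was called in NASH, and no longer called without control rat 1 (0.79), control rat 4 (0.78) or NASH rat 3 (0.81). It was also called between the models, and not without NASH rat 2 (-0.66), NASH rat 3 (-0.70) or NASH-CH rat 2 (-0.70), or with library size only (-0.72).

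Cdkn1a encodes p21, the inhibitor of cyclin-dependent kinases through which p53 arrests the cycle in G1. Its levels ran from 9.39 to 55.8 CPM in control (median 25.1, mean 28.6 ± 18.4), 21.1 to 114 in NASH (median 57.6, mean 59.1 ± 32.1) and 8.98 to 49.3 in NASH-CH rats (median 22.9, mean 26.5 ± 15.8). The spread within each group was wide, with 3 NASH rats above all controls and NASH rat 4 alone at 114 CPM. For Cdkn1a (ENSRNOG00000000521) the log2 fold change was 1.16 (SE 0.49) in NASH, -0.06 (SE 0.49) in NASH-CH and -1.22 (SE 0.49) between the models. It was not called in these fits, so that a NASH difference of about the size of that of Ccng1 came with a wider error.

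**Figure D3:**
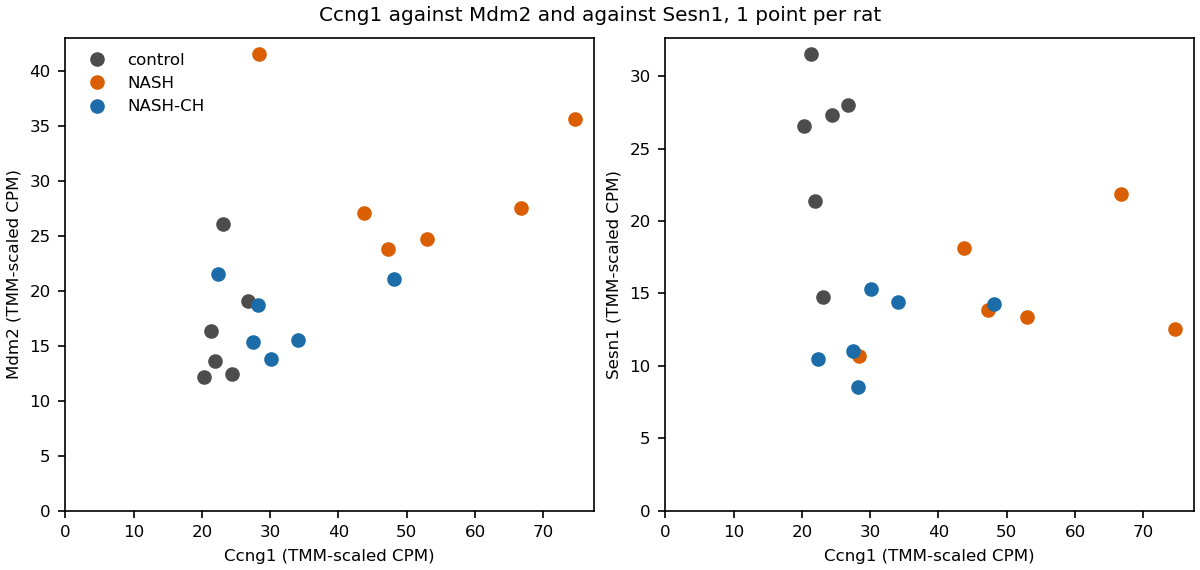
Ccng1 (horizontal axis, TMM-scaled CPM) against Mdm2 (left, CPM) and against Sesn1 (right, CPM), 1 point per rat, 18 rats, coloured by group, both axes from 0. NASH rats lie towards high Ccng1 and high Mdm2, but NASH rat 2, with the highest Mdm2 of 41.6 CPM, has the lowest Ccng1 of its group, 28.4 CPM.

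Within a group, the Ccng1 and Mdm2 levels did not follow each other, as the plot of Ccng1 against Mdm2 shows. Over 18 rats, with each rat taken as its deviation from the group mean of log2 CPM, r was -0.058 (permutation p 0.814, adjusted 0.879) and rho 0.028 (permutation p 0.914, adjusted 0.938), and r was 0.11 without the 2 rats farthest from the median in Ccng1. Without centring on the groups, r was 0.59.

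The sestrins, which restrain the growth kinase complex mTORC1 and limit oxidative damage, differed in which of them was called. Sesn1 (ENSRNOG00000000302) ran from 14.7 to 31.5 CPM in control (median 26.9, mean 24.9 ± 5.96), 10.7 to 21.9 in NASH (median 13.6, mean 15.1 ± 4.14) and 8.57 to 15.3 in NASH-CH rats (median 12.7, mean 12.3 ± 2.69). In NASH 4 of 6 rats, and in NASH-CH 5 of 6, were below all controls, of which control rat 6 was lowest at 14.7 CPM. Its log2 fold change was -0.72 (SE 0.20) in NASH, -1.0 (SE 0.20) in NASH-CH and -0.28 (SE 0.20) between the models, opposite in sign to Ccng1 and Mdm2 in both comparisons with control. In NASH Sesn1 was not called, but it was in 7 of the alternatives, among them edgeR (-0.72), DESeq2 (-0.73), the fit without control rat 6 (-0.87) and the fit without NASH rat 4 (-0.83).

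Sesn2 (ENSRNOG00000042785) ran from 21.2 to 40.5 CPM in control (median 34.2, mean 32.2 ± 8.52), 16.6 to 49.7 in NASH (median 30.6, mean 31.3 ± 12.8) and 16.1 to 49.6 in NASH-CH rats (median 29.4, mean 30.7 ± 11.9). The 3 groups overlapped over most of their range. Its log2 fold changes of -0.11 (SE 0.28), -0.11 (SE 0.29) and 0.00079 (SE 0.29) were smaller than their errors, and each turned sign under some alternatives.

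Of the growth arrest and DNA damage genes, Gadd45b, an activator of stress kinases that is also induced through CAR, had the largest log2 fold change of the 10 in both models. Gadd45b (ENSRNOG00000019822) ran from 4.36 to 26.2 CPM in control (median 9.66, mean 12 ± 7.54), 11.3 to 91.3 in NASH (median 26.8, mean 39.0 ± 29.7) and 22.5 to 35.1 in NASH-CH rats (median 30.3, mean 29.3 ± 5.11). NASH rats were spread widely while NASH-CH rats lay close together, with 3 NASH and 4 NASH-CH rats above control rat 6, the highest control. In log2 fold change this was 1.55 (SE 0.43) in NASH, 1.45 (SE 0.44) in NASH-CH and -0.10 (SE 0.41) between the models. Gadd45b was called in NASH-CH, but not without control rat 1 (1.40), control rat 3 (1.40) or control rat 5 (1.2). In NASH it was not called, and it became so in 7 alternatives, among them edgeR (1.70), DESeq2 (1.70), the fit without control rat 6 (1.84) and the fit without NASH rat 6 (1.85).

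Gadd45a (ENSRNOG00000005615), which binds p21 and PCNA and takes part in G2 arrest, ran from 13.3 to 79.7 CPM in control (median 42.9, mean 43.5 ± 27.3), 52.9 to 143 in NASH (median 64.8, mean 78.3 ± 34.5) and 31.0 to 68.5 in NASH-CH rats (median 46.2, mean 48.6 ± 16). The control rats were spread more widely than the NASH-CH rats, and 2 NASH rats exceeded all controls. The log2 fold change of 1.05 (SE 0.40) in NASH was not called. It was 0.39 (SE 0.40) in NASH-CH and -0.66 (SE 0.41) between the models, not called either.

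Among the genes that promote apoptosis, Phlda3, an inhibitor of the survival kinase Akt, was the one called, lower in the later model. Phlda3 (ENSRNOG00000009068) ran from 9.11 to 22.0 CPM in control (median 14.8, mean 15.8 ± 4.49), 10.4 to 26.7 in NASH (median 19.9, mean 19.3 ± 6.17) and 6.16 to 11.1 in NASH-CH rats (median 9.46, mean 9.04 ± 1.69). In NASH-CH 5 of 6 rats were below all NASH rats and 2 were below all controls. Its log2 fold change was 0.30 (SE 0.23) in NASH, -0.75 (SE 0.23) in NASH-CH and -1.05 (SE 0.22) between the models. The call against control in NASH-CH was lost without control rat 1 (-0.66), control rat 3 (-0.69), control rat 5 (-0.77) or NASH-CH rat 4 (-0.65), and with library size only (-0.50).

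Bax (ENSRNOG00000020876), which permeabilises the outer mitochondrial membrane, held a narrow range of 4.41 to 6.54 CPM in control (median 5.80, mean 5.76 ± 0.742), 5.01 to 8.22 in NASH (median 5.88, mean 6.10 ± 1.09) and 4.40 to 5.31 in NASH-CH rats (median 5.03, mean 4.98 ± 0.359). NASH rat 4, at 8.22 CPM, was the one rat outside the range of the controls on the high side. The log2 fold changes were 0.087 (SE 0.12), -0.19 (SE 0.11) and -0.28 (SE 0.11), none called.

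Tp53inp1 (ENSRNOG00000007964), a nuclear stress protein of apoptosis and autophagy, ran from 19.4 to 39.1 CPM in control (median 34.1, mean 30.9 ± 8.77), 24.7 to 62.6 in NASH (median 36.6, mean 40.7 ± 13.6) and 21.7 to 53.3 in NASH-CH rats (median 37.2, mean 36.4 ± 11.4). The groups overlapped, with 2 NASH and 3 NASH-CH rats above all controls. Its log2 fold changes of 0.39 (SE 0.24), 0.23 (SE 0.25) and -0.16 (SE 0.25) were not called.

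**Figure D4:**
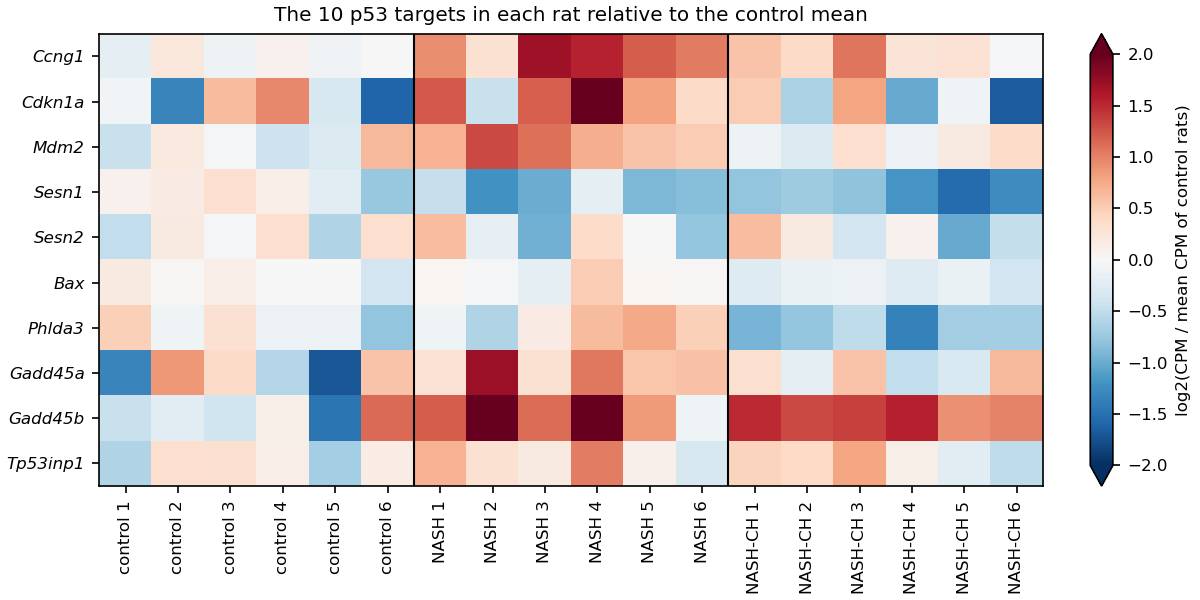
Each of the 10 genes (rows) in each of the 18 rats (columns, grouped as control, NASH and NASH-CH), coloured by the log2 ratio of its CPM to the mean CPM of the control rats, with the colour scale ending at -2 and 2. No rat is high in all 10 genes, and NASH rat 2 is highest of its group in 3 genes and lowest in 4.

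Which rat stood highest changed from gene to gene. NASH rat 2 was the highest NASH rat in Mdm2, Gadd45a and Gadd45b and the lowest in Ccng1, Cdkn1a, Sesn1 and Phlda3. NASH rat 4 was highest of its group in Cdkn1a, Sesn1, Bax and Tp53inp1. NASH-CH rat 3 was highest in 5 genes (Ccng1, Cdkn1a, Bax, Phlda3 and Tp53inp1) and NASH-CH rat 6 lowest in 4 (Ccng1, Cdkn1a, Bax and Tp53inp1). Among controls, rat 5 was lowest in 4 genes (Sesn2, Gadd45a, Gadd45b and Tp53inp1) and rat 6 in another 4 (Cdkn1a, Sesn1, Bax and Phlda3), while rat 6 was the highest control in Mdm2 and Gadd45b.

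To see whether the genes moved together from rat to rat once the group was taken out, the deviations from the group means of log2 CPM were correlated for all 45 pairs over 18 rats. Of the pairs, 27 were positive and 18 negative, with a median r of 0.19, and none passed a permutation test within groups after adjustment over the 45 pairs. Sesn1 with Bax was closest, at r = 0.73 (permutation p 0.00315, adjusted 0.0776) and rho = 0.66 (permutation p 0.0044, adjusted 0.0637), and r was 0.49 without the 2 rats farthest from the median in Sesn1. Taken by group, r was 0.90, 0.80 and 0.26 in control, NASH and NASH-CH rats. Sesn2 with Tp53inp1 had r = 0.70 (permutation p 0.00345, adjusted 0.0776) and rho = 0.67 (permutation p 0.00653, adjusted 0.0637), and 0.72 without the 2 farthest rats. Mdm2 with Gadd45a also had r = 0.70 (permutation p 0.00577, adjusted 0.0866) and rho = 0.62 (permutation p 0.0175, adjusted 0.0975), and 0.59 without the 2 farthest rats. Both genes of a pair are read from the same libraries, so that depth and scaling enter both values.

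The genes whose log2 CPM most resembled that of Ccng1 over the 18 rats were Jam3 (r = 0.88), Pla2g15 (0.84), Pik3ca (0.84), Il6st (0.83) and Tmem185b (0.83). Jam3, a junctional adhesion molecule, averaged 7.48, 14.3 and 11.0 CPM in control, NASH and NASH-CH rats, and Pla2g15, a lysosomal phospholipase, 9.67, 25.9 and 19.1. For Sesn1 they were Ptges2 (r = 0.92), Tpst2 (0.89), Prkcdbp (0.86), Tssc4 (0.86) and Slc45a3 (0.85). Prkcdbp, which encodes the caveolar protein cavin-3, averaged 24.4, 8.57 and 5.80 CPM. These are the highest values among tested genes with at least 1 CPM on average, with genes that carry only a placeholder symbol left out. They contain the group differences as well as those between rats of a group.

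Of the 10 tested genes of p53 and its regulators, Usp7, a deubiquitinase of Mdm2 and p53, rose in NASH-CH rats. It ran from 37.6 to 49.4 CPM in control (mean 42.7 ± 3.92), 47.9 to 54.8 in NASH (mean 50.4 ± 2.54) and 43.2 to 58.1 in NASH-CH rats (mean 51.0 ± 5.22), with 4 NASH-CH rats above all controls. The log2 difference was 0.25 (SE 0.08, adjusted p 0.0433) in NASH-CH and 0.24 (SE 0.08, adjusted p 0.0915) in NASH. The NASH-CH call was lost on leaving out any one of 9 of the 12 rats compared, all but control rat 6 and NASH-CH rats 1 and 2 (adjusted p 0.0534 to 0.104).

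The rest of the pathway was set beside the 10 genes through lists of p53 regulators and of other known targets, which hold 57 genes, of which 50 were tested. In NASH 1 of the 50 rose and 2 fell, in NASH-CH 4 rose and none fell, and between the models 1 rose, with medians of the log2 fold change of 0.0055, 0.047 and 0.020. The shares of all genes called were 3.12%, 17.0% and 4.20%. At an unadjusted p under 0.05 there were 18, 13 and 8 genes, edgeR called 4, 6 and 3 and DESeq2 8, 8 and 5. Over all 12904 tested genes, 2776, 4085 and 2254 had an unadjusted p under 0.05 in the 3 comparisons. Of the 12904, edgeR called 652, 2449 and 617 and DESeq2 1228, 2841 and 949. These shares and counts over all genes are the background for the counts of each list that follows.

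**Figure D5:**
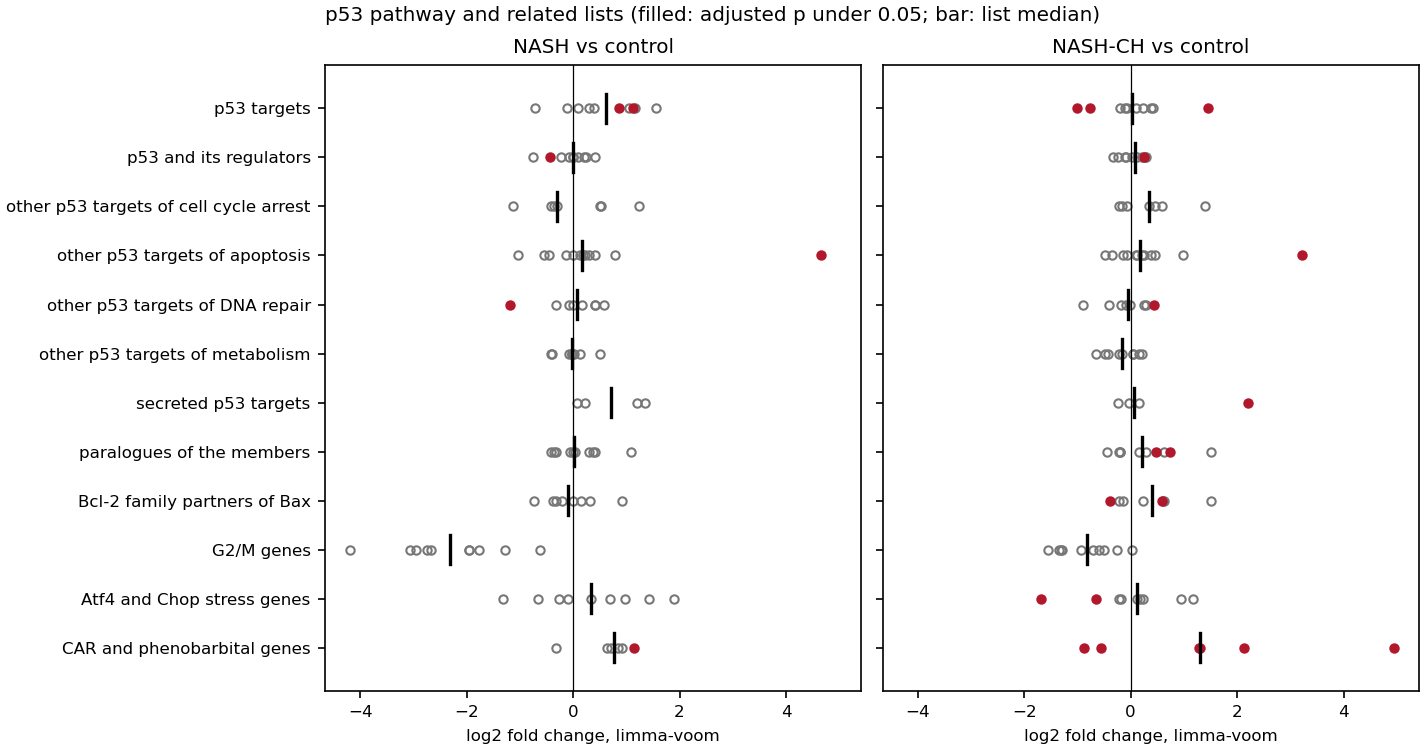
Log2 fold change (horizontal axis) of each tested gene of the 10 p53 targets and of 11 related lists, for NASH (left) and NASH-CH (right) against control. Filled points have an adjusted p under 0.05 and the vertical bar is the list median. The G2/M genes lie to the left of 0 in NASH, with a median of -2.31. The medians of the 6 CAR and phenobarbital genes lie to the right in both models, at 0.78 and 1.30. Of these genes, 1 lies to the left in NASH and 2 in NASH-CH.

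Among the 12 tested apoptosis targets, Eda2r, a death receptor of the TNF receptor family, was the one called, and it rose in both models from near 0. It had 0 to 5 counts in control rats (6 in all), 3 to 60 in NASH and 9 to 46 in NASH-CH rats, or means of 0.0363, 1.32 and 0.400 CPM. The fitted log2 fold changes of 4.67 (SE 0.91, adjusted p 0.0117) and 3.23 (SE 0.93, adjusted p 0.0236) rest on these few control counts and depend on the prior count of the fit. The NASH call was lost without control rat 3 (4.53, adjusted p 0.0504), and the NASH-CH call without control rat 1, 3, 4 or 5 (3.03 to 3.15, adjusted p 0.0620 to 0.0693).

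Of the 8 DNA repair targets, Xpc, which recognises damage in nucleotide excision repair, fell in NASH (log2 fold change -1.19, SE 0.31, adjusted p 0.0439), from 27.8 to 128 CPM in control to 19.3 to 48.4 CPM. The groups overlapped, and the call was lost without any one of control rats 1, 2, 4 and 5 and NASH rats 2, 3, 4 and 5 (-1.19 to -0.99, adjusted p 0.0617 to 0.114). Rev3l, the catalytic subunit of a translesion polymerase, rose in NASH-CH (0.44, SE 0.14, adjusted p 0.0390), a call lost without any one of control rats 1, 3, 4 and 5 and NASH-CH rats 2, 3, 5 and 6 (adjusted p 0.0612 to 0.102). None of the 7 cell cycle arrest targets and none of the 9 metabolic targets tested was called by limma. Of all tested genes 3.12%, 17.0% and 4.20% were called in the 3 comparisons, so that 0 called in lists this small says little about those targets. Of the metabolic targets, Aldh4a1 was read from the entry with the symbol Tas1r2, found as a RefSeq synonym. At an unadjusted p under 0.05 the arrest targets numbered 2, 0 and 1 in the 3 comparisons, with 0, 0 and 0 called by edgeR and 0, 0 and 1 by DESeq2. The metabolic targets numbered 2, 2 and 1 at that unadjusted level, with 0, 0 and 1 called by edgeR and 1, 1 and 1 by DESeq2.

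Sesn3, the paralogue of Sesn1 and Sesn2 that is best known as a FoxO target, rose where Sesn1 was lower. It ran from 3.55 to 4.90 CPM in control (mean 4.21 ± 0.537), 3.90 to 6.02 in NASH (mean 5.25 ± 0.738) and 5.00 to 10.1 in NASH-CH rats (mean 7.27 ± 2.07). All NASH-CH rats were above all controls, and the log2 difference of 0.74 (SE 0.18, adjusted p 0.00987) was called without any one rat, and in NASH it was 0.31 (SE 0.20, adjusted p 0.386). Of the 10 paralogues tested, Tp53inp2, which takes part in autophagy, was the other one called in NASH-CH (0.48, SE 0.16, adjusted p 0.0475), and this was lost on leaving out any one of 10 of the 12 rats, all but control rat 2 and NASH-CH rat 5 (adjusted p 0.0673 to 0.104). In NASH none of the paralogues was called by limma, with 3 at an unadjusted p under 0.05 and 1 called by edgeR and 1 by DESeq2. As limma called 3.12% of all tested genes in NASH and 17.0% in NASH-CH, nothing is read from the counts of this list.

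Among the 8 tested Bcl-2 family partners of Bax, none was called in NASH by limma, with 3 at an unadjusted p under 0.05, 0 by edgeR and 1 by DESeq2. The shares of all tested genes called by limma were 3.12% in NASH and 17.0% in NASH-CH. In NASH-CH the anti-apoptotic Bcl2l1 rose (0.58, SE 0.19, adjusted p 0.0408) and the pro-apoptotic Bad fell (-0.39, SE 0.12, adjusted p 0.0281). Bcl2l1 was not called without any one of control rats 1, 4 and 5 and NASH-CH rats 1, 2, 3, 4 and 6 (adjusted p 0.0617 to 0.0974), and Bad not without control rat 1, 3 or 5 or NASH-CH rat 6 (adjusted p 0.0505 to 0.0715).

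Genes of the G2 and M phases, which p53 and p21 are known to repress, lay lower in NASH rats without passing the test, and 1 NASH-CH rat stood far from the rest. All 10 tested had a negative log2 fold change in NASH, with a median of -2.31, and for 8 of the 10 every NASH rat was below every control, against 3.16% of all genes with groups that did not overlap. Some of them had few counts in NASH rats, with 0 to 6 for Ccnb1, 1 to 7 for Ccna2 and 2 to 5 for Cdk1. In control rats these had 15 to 56, 10 to 37 and 11 to 44. The size of such fold changes rests on these few counts. Mki67, a marker of cycling cells chosen here after its values were seen, ran from 3.66 to 11.5 CPM in control, 1.16 to 1.93 in NASH and 1.96 to 32.7 in NASH-CH rats. In NASH-CH rat 5 alone was at 32.7 CPM, and the other 5 were at 1.96 to 3.13, below every control. limma called 0 of 10 in each comparison, with 8, 3 and 2 at an unadjusted p under 0.05, while edgeR called 4, 0 and 0 and DESeq2 6, 0 and 5. In NASH-CH against control the median was -0.81, and without NASH-CH rat 5 it was -1.67, with 7 of 10 called lower and 7 of 10 below every control. Between the models the median of 1.44 became 0.70 without that rat. In NASH 4 of 10 were called without control rat 6, with a median of -2.45.

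For the lists of the other regulators of these genes, 0 of 9 Atf4 and Chop stress genes were called in NASH by limma, with 4 at an unadjusted p under 0.05 and 0 by edgeR or DESeq2. Over all tested genes limma called 3.12% in NASH and 17.0% in NASH-CH. In NASH-CH Atf5, a stress transcription factor, fell (-0.65, SE 0.18, adjusted p 0.0189), as did Fgf21, a hepatic hormone of fasting and stress (-1.69, SE 0.55, adjusted p 0.0418). Atf5 was not called with library size only (-0.40). Fgf21 was not called without any one of control rats 1, 2, 3 and 6 and NASH-CH rats 1, 2 and 5 (adjusted p 0.0575 to 0.0914).

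Of the 6 CAR list genes tested, 1 rose in NASH, 4 rose and 2 fell in NASH-CH, and between the models 1 rose and 1 fell. Over all tested genes the shares called were 3.12%, 17.0% and 4.20%. Cyp3a23/3a1, a drug-metabolising cytochrome, rose in both, by 1.15 (SE 0.19, adjusted p 0.00528) in NASH and 1.29 (SE 0.19, adjusted p 0.000184) in NASH-CH on the log2 scale, with every rat of both groups above every control. Cyp2c6v1 (2.14, SE 0.29, adjusted p 5.47e-05), the epoxide hydrolase Ephx1 (1.31, SE 0.26, adjusted p 0.00263) and Cyp2b2, the classic phenobarbital-induced cytochrome (4.96, SE 1.2, adjusted p 0.00946), rose in NASH-CH with no overlap with control. Cyp2c6v1 was also higher in NASH-CH than in NASH (1.21, SE 0.29, adjusted p 0.0244), a call lost without NASH rat 4, 5 or 6 or NASH-CH rat 2 (adjusted p 0.0521 to 0.0586), and Nr1i3 was lower (-1.51, adjusted p 0.000901). In NASH Cyp2b2 was spread from 5.99 to 1105 CPM, with a median of 56.6 against 36.0 in control. NASH rat 2 alone stood at 1105 CPM and the other 5 at 5.99 to 201, of which 2 were below all controls. The NASH mean of 239 CPM thus rests on that rat. NASH rat 2, singled out after its values were seen, was the highest NASH rat in Mdm2, Gadd45a and Gadd45b. It was the lowest NASH rat in Ccng1, Cdkn1a, Sesn1 and Phlda3. In NASH-CH rats Cyp2b2 ran from 555 to 1058 CPM. The other 2 of the 6 tested, Nr1i3, the gene of CAR itself, and Cyp2b3, named after their values were seen, fell in NASH-CH (-0.87, adjusted p 0.0289, and -0.55, adjusted p 0.0492). The cytochromes belong to multigene families, among whose members RSEM divides shared reads, and the size of that effect was not tested. Mdm2 was high in NASH rats and near control in NASH-CH rats, while Gadd45b was high in both, and the part of phenobarbital in either was not tested.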

How the data were processed

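Rat liver RNA-seq of 6 control, 6 NASH and 6 NASH-CH rats was used. Reads were adapter-trimmed and mapped by the authors with STAR in 2-pass mode on Rnor_6.0, and RSEM with Ensembl release 95 gave the deposited expected counts per gene and rat, not normalized for depth or length. Tool versions are not given in the sources used here. Labels name a stranded mRNA kit, and an RNAqueous-Micro kit where the methods name miRNeasy.

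The expected counts were rounded, filtered with filterByExpr and scaled by TMM in edgeR 4.0.16, and tested as in the study's methods with limma 3.58.1 (voom, moderated statistics, R 4.3.3) in 1 fit of all 18 rats. P-values were adjusted by the Benjamini-Hochberg method over 12904 genes in each comparison, with a threshold of 0.05. Against control this fit called 403 genes in NASH and 2192 in NASH-CH. The study reports fewer at the same threshold, with the larger gap in NASH-CH. Its filter on low counts is not stated, and the source of the gap was not tested. The members and lists were chosen with earlier results of these data known. The text names all 10 members, up to 4 called genes of each list, and the 5 genes most correlated with Ccng1 and with Sesn1, placeholder symbols left out. Log2 CPM for correlations had a prior count of 2, and correlations of deviations from group means were tested by 100000 two-sided permutations within groups. Alternatives were DESeq2 1.42.0, the quasi-likelihood test of edgeR, other scalings and filters, the 2 groups alone, sample quality weights, thinned NASH-CH counts, a replicate block, a threshold of 0.01 and leaving out each rat. The limma fit was tested on simulated data.

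Totals ran from 19498534 to 60117822 counts, with the NASH-CH libraries the deepest, and bound counting error only. No 2 rats of a group agreed within counting error (chi-square per degree of freedom at least 41.8, 28.3 and 71.1 in control, NASH and NASH-CH). Of 104 genes in the companion lists 97 were matched and 89 tested. Results for some of these genes are not reported here. Promoters came from RefSeq (GRCr8), another build than that of the counts, and no coordinate was converted.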

Additional observations from a re-analysis of the deposited data

Results flagged for a closer look

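Bax in NASH rats held 1 rat far from the others. NASH rat 4 had 8.22 CPM and the next NASH rat 5.93 CPM, a gap of 0.715 of the range of the group, which is above the 95% critical value of Dixon's test for 6 values. The 10 genes in 3 groups made 30 such checks, of which 1 stood out where chance alone gives about 1.5 (1 in 20).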

How the results depend on the processing

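Of 650 refits of the 30 differences of the 10 genes, 585 kept direction and side of the threshold, 15 lost the call, 22 gained it and 28 turned sign. The causes were not tested. Library size only moved the median of all genes by 0.23, 0.27 and 0.040 (NASH, NASH-CH, NASH-CH against NASH). Number of the 10 genes called: NASH (main 2) 4 with edgeR, DESeq2, at least 10 counts or quality weights, 1 at 0.01, and 1 to 4 leaving out a rat; NASH-CH (main 3) 1 at 0.01 and 1 to 3 leaving out a rat; between models (main 2) 1 with library size only or at 0.01 and 1 to 3 leaving out a rat. Of the 50 pathway genes: NASH (main 3) 8 with DESeq2 or quality weights, 1 with the 2 groups alone, 0 at 0.01 and 1 to 8 leaving out a rat; NASH-CH (main 4) 8 with DESeq2, 9 with library size only, 7 without a filter, 2 with the 2 groups alone or thinned counts, 0 at 0.01 and 1 to 7 leaving out a rat; between models (main 1) 3 with edgeR, quality weights or the replicate block, 5 with DESeq2, 4 without a filter and 1 to 4 leaving out a rat.

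Sign turned, in NASH, for Sesn2 with library size only (0.11). In NASH-CH it turned with library size only for Cdkn1a (0.20), Sesn2 (0.14) and Bax (0.059), and with quality weights for Sesn2 (0.081). Between models it turned for Sesn2 with edgeR (-0.029), DESeq2 (-0.032), DESeq2 size factors (-0.0016), no filter (-0.0071), the 2 groups alone (-0.0020) and the replicate block (-0.016), and with quality weights for Gadd45b (0.11) and Tp53inp1 (0.025). Leaving out a rat gave -0.26 to 0.058 for Sesn2 in NASH, -0.33 to 0.20 for Cdkn1a and -0.26 to 0.047 for Sesn2 in NASH-CH, and -0.16 to 0.15 for Sesn2 and -0.39 to 0.21 for Gadd45b between models.

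Rats with the same number in 2 groups deviated together only weakly (mean r 0.054, 0.067 and 0.010, with 2, 1 and 0 of 6 pairs over 0.1). Of the 6 rats, 2, 3 and 1 correlated best with the rat of their own number. The numbers were not taken as pairs in the main fit, though 6 pairs are too few to exclude a link. With the replicate block 3, 3 and 3 of the 10 genes and 4, 5 and 3 of the 50 were called. It added Sesn1 in NASH (-0.72) and Cdkn1a between models (-1.22). In NASH-CH it lost Tp53inp2 (0.47) and Fgf21 (-1.70). Lymphocyte and neutrophil markers and Eda2r in controls sat at counts too low to show small differences.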

Other observations

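Control rats 1 and 5 stood apart in some of the genes listed, a pattern chosen after the values were seen. Of the members, Sesn2, Gadd45a, Gadd45b and Tp53inp1 were lower in both of these rats than in every other control. Sesn2 was at 22.9 and 21.2 CPM against 31.8 to 40.5, and Tp53inp1 at 20.4 and 19.4 against 33.9 to 39.1. Gadd45b was at 8.79 and 4.36 CPM, with control rat 3 close at 9.03. Ccng1, Cdkn1a, Mdm2, Sesn1, Bax and Phlda3 did not follow this pattern. Among the other p53 targets Aen and Plk3 followed it, while Fas and Steap3 did not. Cdkn1a was at 27.4 and 22.9 CPM in these rats, within the 9.39 to 55.8 of the other controls, and rat 1 was the highest control in Bax and Phlda3. The TMM factors of rats 1 and 5 were 0.823 and 0.790, the lowest of the controls. Levels are divided by this factor, so that a low factor raises the CPM of a rat. The part of scaling was not tested. Btg2, an antiproliferative immediate early gene and p53 target, was at 22.1 and 15.2 CPM in these rats and at 575, 311, 205 and 459 CPM in control rats 2, 3, 4 and 6, while the NASH rats ran from 151 to 495 and the NASH-CH rats from 213 to 637. Before scaling, Btg2 had 355 and 307 counts in control rats 1 and 5 and 4968 to 14920 in the other controls. Gadd45a was at 17.4 and 13.3 CPM in control rats 1 and 5 and from 29.1 to 79.7 in the others. Gdf15, a secreted stress cytokine, was at 7.79 and 2.88 CPM against 13.6 to 54.3.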
